A study of Mus musculus with 16 samples.

Results

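Distal colon organoids kept in Wnt-containing medium were compared with and without an intact Cdx2 gene. Libraries were chosen by the region, guide and medium in their titles, which gave 2 Cdx2-sgRNA and 2 Scramble-sgRNA libraries of the distal WENR-plus condition, 4 of the 16 libraries of the series. The other 12 libraries hold the distal WENR-minus condition and the proximal colon in both media, and they entered the fit only to share its estimate of spread and to place the distal change beside the others. The question was which genes depend on Cdx2 in the distal epithelium while stem cell niche factors are supplied.

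All organoids came from the last part of the descending colon (distal) or the proximal colon of mice that were heterozygous for a Cre-inducible BRAFV600E allele (B6.129P2(Cg)-Braftm1Mmcm/J) and for a tdTomato reporter. These alleles were shared by controls and edited organoids, and the titles and treatment labels of these libraries name no Cre. Per the study's methods the mice were female and 8 weeks old and the organoids came from 2 of them, but the sources used here do not say which replicate number is which mouse. Each line was transduced with lentivirus carrying Cas9 and a guide. The Scramble-sgRNA organoids carried a control guide. The Cdx2-sgRNA organoids were grown out of picked single cells with frameshifts in both alleles, so each Cdx2-sgRNA library is 1 clone, and no such step is described for the Scramble-sgRNA organoids. Editing and clonal outgrowth therefore cannot be told apart. In month 4 of culture the organoids were kept for 2 days and then for 3 more days in WENR-plus, a medium with Wnt, EGF, Noggin and R-spondin. The label field for the molecule reads genomic DNA, but the protocols describe total RNA libraries.

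Cdx2 encodes a homeobox transcription factor of the intestinal epithelium. In the embryo it sets intestinal in place of gastric fate, and in the adult it keeps up genes of enterocytes, goblet cells and other differentiated cells. Its close paralog Cdx1 is made in the same epithelium. In organoids supplied with Wnt, stem cells divide and part of their progeny differentiate, so that a bulk library holds a mixture in which fewer cells of a type and less RNA per cell cannot be told apart.

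The guide is shown because it fixes where the coding frame was interrupted. Its sequence comes from the study's oligo list, and the capitals mark the PAM that follows it in the Cdx2 transcript of the GENCODE annotation.
Cdx2 guide: agcggcgaaacctgtgcgagTGG
This site lies in exon 1 of 3, on the coding strand, at chr5:147306485-147306504 (GRCm38, gene on the minus strand), and covers bases 479 to 498 of the 933-base coding sequence.

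Cdx2 transcript was present in every library. It was counted at 76.8 and 67.9 CPM (reads scaled to library size by TMM) in the Scramble-sgRNA libraries and at 62.3 and 50.2 CPM in the Cdx2-sgRNA libraries. The Cdx2-sgRNA libraries were both lower, but the log2 fold change of -0.36 ± 0.20 (SE) did not pass the test (edgeR, adjusted p = 0.857). The paralog Cdx1 was at 95.4 and 79.9 CPM against 80.4 and 68.7 CPM, a log2 fold change of -0.23 ± 0.21 (adjusted p = 0.968). With the same guide, Cdx2 RNA of proximal organoids fell by 2.09 ± 0.21 in WENR-plus (adjusted p = 5.48e-05) and by 1.29 ± 0.20 in WENR-minus (adjusted p = 0.000679) on the log2 scale. The distal RNA counts therefore do not check the labelled knockout.

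The 4 libraries held 16055752 to 18319430 counts each, within the 12465194 to 18922143 of the series, and mitochondrial ribosomal RNA took 20.2 to 22% of them. Epithelial markers were high in all 4: Epcam was at 810 to 1069 CPM, Cdh1 at 749 to 994 CPM and Krt8 at 1046 to 1207 CPM. Markers of other tissues were low. Of 14 fibroblast and muscle markers 4 had enough counts to be tested, with summed levels of 11.7 to 12.1 CPM in Scramble-sgRNA and 11.6 to 11.8 CPM in Cdx2-sgRNA libraries. The sum of 13 endothelial and neural markers was 12.1 and 15.6 CPM against 12.2 and 8.62 CPM. For 14 immune markers it was 1.70 and 1.40 CPM against 8.08 and 3.17 CPM. Itgam, an integrin of myeloid cells, accounted for most of this difference (1.5 and 1.29 against 7.68 and 2.43 CPM, adjusted p = 0.637), while 9 of the 14 had no read in any of the 4 libraries. The part of these cells in the results was not tested.

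A gene was called where its adjusted p was below 0.05 and its log2 fold change beyond 1 in either direction. This held for 40 of 15289 tested genes, or 0.262%. Among these 21 were higher in Cdx2-sgRNA organoids (0.137% of tested genes) and 19 were lower (0.124%). All 40 had libraries that did not overlap between the groups, which held for 37.1% of all tested genes. Without adjustment 973 genes, or 6.36%, had a p below 0.05, of which 574 were higher and 399 lower. The median log2 fold change of all tested genes was -0.012. For 10 of the 40 every library of 1 group held at most 3 reads. Their fitted fold change depends on a prior count, and the smallest fold that the counts allow, with 3 reads per library as the level of the low group, is given in its place.

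**Figure D1:**
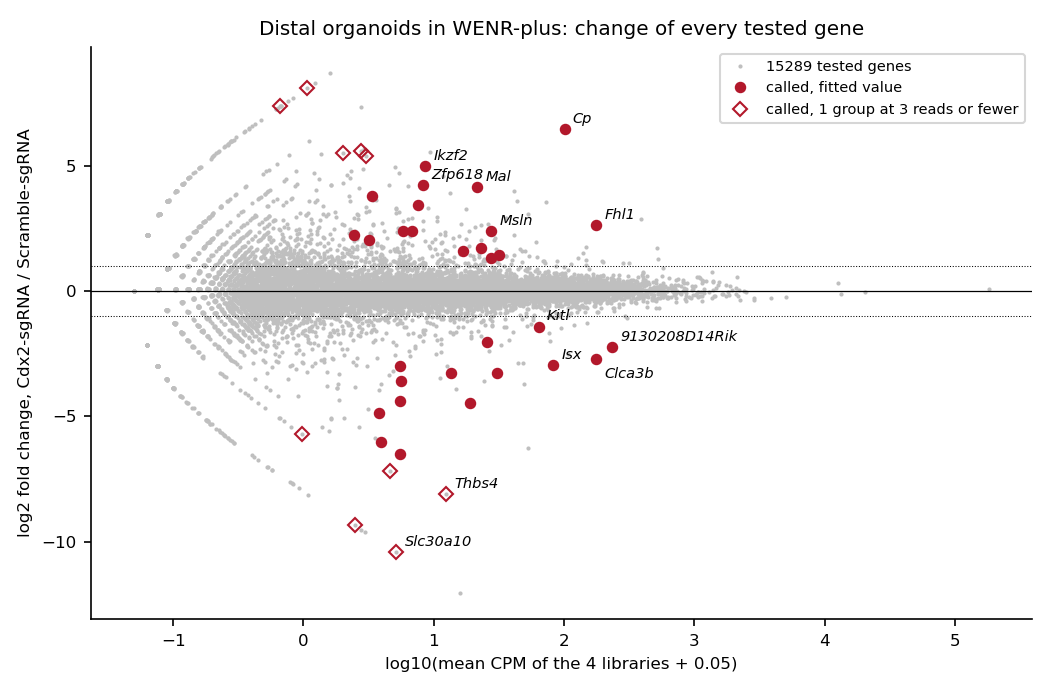
Each point is 1 tested gene in the distal WENR-plus comparison, with the log10 of its mean CPM over the 4 libraries on the x axis and its fitted log2 fold change on the y axis. Filled red circles are the called genes and open diamonds the 10 called genes with at most 3 reads in every library of 1 group, whose height depends on the prior count; dotted lines mark a log2 fold change of 1 in each direction.

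The strongest evidence was for Isx, an intestine-specific homeobox gene that represses uptake and cleavage of carotenoids (chr8:74873173-74893506). It was at 152 and 141 CPM in Scramble-sgRNA libraries and at 16.9 and 20.8 CPM in Cdx2-sgRNA libraries. Both pairs were tight and far apart, and Isx fell by 2.96 ± 0.21 on the log2 scale (adjusted p = 0.000194, the lowest of all genes). No other transcription factor of the intestinal list was called. Of 20 tested members 13 had negative and 7 positive fold changes, and their median was -0.075 (-0.13 to 0.016 without 1 library). Vdr, the vitamin D receptor, was at 129 and 149 CPM against 66.7 and 34.0 CPM, a log2 fold change of -1.46 ± 0.37 that missed the threshold (adjusted p = 0.183), though DESeq2 called it (adjusted p = 0.011). Elf3, an epithelial ETS factor, was at 362 and 251 against 397 and 414 CPM (adjusted p = 0.784). Hnf4a, a nuclear receptor of the gut epithelium, was at 447 and 300 against 394 and 348 CPM, with a log2 fold change of -0.0091 ± 0.29.

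3 further genes that fell were well read in the controls. Clca3b, a member of the family of calcium-activated chloride channel regulators (chr3:144822623-144849357), was at 357 and 257 CPM in controls and at 27.6 and 65.6 CPM in Cdx2-sgRNA libraries. It fell by 2.72 ± 0.45 (log2, adjusted p = 0.0354). The gene has close copies in its cluster, so its count depends on how reads were shared among them. Fam189a2, a membrane protein gene (chr19:23972750-24031019), was at 43.6 and 66.2 CPM against 6.71 and 4.71 CPM and fell by 3.27 ± 0.37 (adjusted p = 0.00741). Kitl, the ligand of the Kit receptor (chr10:100015630-100100416), was at 80.8 and 105 CPM against 28.7 and 40.7 CPM and fell by 1.42 ± 0.24 (adjusted p = 0.0364). In these 3, as in all called genes that fell, the lowest control library exceeded the highest edited library.

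Signalling and transcription genes formed the next group. Etv5, an ETS factor induced by receptor tyrosine kinase signalling (chr16:22381309-22439719), was at 49.0 and 32.6 CPM against 8.25 and 11.8 CPM and fell by 2.02 ± 0.33 (adjusted p = 0.0301). Dach1, a transcriptional cofactor of the dachshund family, was at 6.26 and 14.4 against 1.03 and 0.688 CPM, a fall of 3.58 ± 0.44 (adjusted p = 0.01). Dact1, which binds Dishevelled and modulates Wnt signalling, was at 4.81 and 16.1 against 0.688 and 0.317 CPM and fell by 4.37 ± 0.64 (adjusted p = 0.0196). In these 3, as in all called genes that fell, the control libraries stayed above the edited libraries. Htr4, a serotonin receptor, was at 5.66 and 4.03 CPM in controls and had 0 reads in both Cdx2-sgRNA libraries, at least 29.3-fold lower (adjusted p = 0.0168).

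Enzymes were a further group. Cbs, which makes cystathionine from homocysteine (chr17:31608894-31637238), was at 12.2 and 7.15 CPM against 0.917 and 1.48 CPM and fell by 3.00 ± 0.34 (adjusted p = 0.00741). Chst11, a sulfotransferase of chondroitin sulfate, was at 22.5 and 50.3 against 2.18 and 1.16 CPM and fell by 4.45 ± 0.67 (adjusted p = 0.0225). Hmgcll1, a lyase that yields ketone bodies outside the mitochondria, was at 4.11 and 14 CPM in controls and had 1 read in each Cdx2-sgRNA library, at least 54.9-fold lower (adjusted p = 0.0301). Acer1, a ceramidase, was lower still in controls, at 2.60 and 1.02 CPM, and had at most 1 read in a Cdx2-sgRNA library, at least 11-fold lower (adjusted p = 0.0301). In these 4, as in all called genes that fell, the control libraries lay above the edited ones. Their levels differed widely between the genes.

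Genes of metal export, matrix and the cytoskeleton completed the named protein-coding genes that fell. Slc30a10, an exporter of manganese (chr1:185454848-185468762), had 345 and 59 reads (17.3 and 3.17 CPM) in controls and 0 in both Cdx2-sgRNA libraries, at least 61.8-fold lower (adjusted p = 0.038). Without control replicate 1 the bound was 19.2-fold and the call was lost (adjusted p = 0.0692). Thbs4, an extracellular thrombospondin (chr13:92751590-92794818), was at 40.8 and 8.50 CPM in controls and had 3 and 0 reads in edited libraries, at least 149-fold lower (adjusted p = 0.0354). Without control replicate 1 the Thbs4 bound was 51.4-fold (adjusted p = 0.138). For both genes control replicate 1 was several times above control replicate 2, and both stayed above the edited libraries. Wipf1, which binds the actin regulator WASP (chr2:73429610-73529734), was at 8.76 and 12.7 CPM against 4 and 0 reads and fell by 6.50 ± 0.74 (adjusted p = 0.00741), a value that rests on 4 reads in Cdx2-sgRNA replicate 1. Gm1673, a protein-coding gene without a stated role, was at 6.11 and 9.25 CPM against 4 and 0 reads and fell by 6.02 ± 0.79 (adjusted p = 0.0117).

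3 called genes are not protein-coding. Gm2061, a long intergenic RNA on the opposite strand from Slc30a10 that overlaps it over 721 bases, was at 12.6 and 1.99 CPM against 0.229 and 0.264 CPM (adjusted p = 0.0301). As for Slc30a10, control replicate 1 was the higher. The unprocessed pseudogenes 9130208D14Rik (410 and 358 against 119 and 45.5 CPM, adjusted p = 0.0364) and Gm27149 (17.2 and 32.0 against 2.75 and 2.33 CPM, adjusted p = 0.0195) lie near each other on chromosome 7. Their fold changes were -2.23 ± 0.38 and -3.27 ± 0.48, and reads may be shared among copies of such sequences, so the source of these counts is uncertain.

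Among the genes that rose, Cp had the highest fold change of the 16 not at the floor. Cp encodes ceruloplasmin, the copper-binding ferroxidase (chr3:19957054-20009145). It was at 1.05 and 3.55 CPM in controls and at 77.4 and 320 CPM in Cdx2-sgRNA libraries, and rose by 6.44 ± 0.85 on the log2 scale (adjusted p = 0.0121). Edited replicate 2 was above replicate 1, and so was control replicate 2. The 32 tested genes of metal transport and binding had a median of 0.086 (-0.045 to 0.37 without 1 library), with Cp called higher and Slc30a10 called lower. Trf, the iron carrier transferrin, was at 2.85 and 2.42 against 3.84 and 32.8 CPM (adjusted p = 0.234, and 0.0062 by DESeq2), so that edited replicate 2 alone stood far above the controls. Atp7b, a copper pump, was at 1.90 and 2.80 against 13 and 8.41 CPM (adjusted p = 0.462).

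Genes of the fetal and regenerative epithelium held 2 of the called genes. Msln, mesothelin, a surface glycoprotein (chr17:25748613-25754378), was at 6.01 and 11.6 CPM in controls and at 46.7 and 46.1 CPM in Cdx2-sgRNA libraries and rose by 2.40 ± 0.30 (adjusted p = 0.0115). Ly6d, a GPI-anchored surface protein of the Ly6 family, was at 1.15 and 1.40 against 7.80 and 19.7 CPM and rose by 3.43 ± 0.46 (adjusted p = 0.0138). Of 22 tested members 17 had positive fold changes, 9 of them below an unadjusted p of 0.05 and none lower at that level, where 574 of the 15289 tested genes were higher at that level. The median of the list was 0.43, or 0.41 with 4 members at the floor set to their limits, and ran from 0.24 to 0.55 without 1 library. Clu, clusterin, was at 1.60 and 2.85 against 6.88 and 15.2 CPM, a log2 fold change of 2.31 ± 0.45 (adjusted p = 0.0766). Clu was called by DESeq2 (adjusted p = 2.75e-05). F3, tissue factor, was at 247 and 111 against 419 and 351 CPM (adjusted p = 0.417).

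Mal, a proteolipid of apical membrane transport (chr2:127633226-127656695), was at 1.55 and 3.06 CPM against 34.6 and 46.4 CPM and rose by 4.13 ± 0.56 (adjusted p = 0.014). Adgrg6, an adhesion receptor coupled to G proteins, had 3 and 1 reads in controls and was at 7.05 and 3.60 CPM in edited libraries, at least 34.2-fold higher (adjusted p = 0.0301). Npnt, nephronectin, an integrin ligand of the basement membrane, was at 0.651 and 0.215 CPM against 3.84 and 8.57 CPM and rose by 3.80 ± 0.63 (adjusted p = 0.0354), or by 2.99 with length-scaled counts (adjusted p = 0.0465). The groups did not overlap for these 3 genes, as for all 40 called genes. Itpripl2 was at 1.60 and 2.04 against 8.54 and 10.7 CPM, a rise of 2.40 ± 0.31 (adjusted p = 0.0117). Apol7a, of the apolipoprotein L family, was at 2.65 and 1.61 against 12.8 and 9.94 CPM, a rise of 2.41 ± 0.37 (adjusted p = 0.0241). That family too has near copies among which reads could be split.

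Transcription factors that rose were Ets1, Ikzf2 and Zfp618. Ikzf2 encodes Helios, a zinc finger factor best known in lymphocytes (chr1:69531214-69687245). It was at 0.551 and 0.484 CPM against 14.8 and 18.3 CPM and rose by 4.98 ± 0.57 (adjusted p = 0.00741). Zfp618, also a zinc finger gene (chr4:62965573-63139708), was at 0.901 and 0.753 against 16.3 and 14.7 CPM and rose by 4.21 ± 0.66 (adjusted p = 0.0269). Both were near the limit of counting in controls, with 9 to 18 reads a library, and had 259 to 346 reads in edited libraries. Ets1 was at 6.91 and 9.68 against 26.9 and 23.8 CPM and rose by 1.61 ± 0.22 (adjusted p = 0.0155). Ets1 and Ikzf2 are also active in lymphocytes, and of the leukocyte markers Ptprc had 0 and 0 against 4 and 4 reads and Cd3e had none.

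Cytoskeletal and signalling proteins made up most of the remainder. Fhl1, a LIM domain protein best known from muscle (chrX:56731787-56793346), was at 60.9 and 36.9 CPM against 328 and 279 CPM and rose by 2.63 ± 0.34 (adjusted p = 0.0117). Rhou, a small GTPase, was at 16.6 and 14.6 against 44.3 and 34.3 CPM and rose by 1.33 ± 0.20 (adjusted p = 0.0195). Myo7a, an unconventional myosin, was at 9.96 and 11.6 against 25.6 and 45.0 CPM and rose by 1.71 ± 0.27 (adjusted p = 0.0301). Fhl1 had the highest fold change of these 3, and Rhou had the lowest fold change of the called genes that rose. Ppp2r3a, a regulatory subunit of protein phosphatase 2A, was at 17.1 and 17.4 against 54.7 and 38.2 CPM and rose by 1.43 ± 0.23 (adjusted p = 0.0301). Dapk1, a kinase linked to cell death, had 3 and 2 reads in controls and was at 6.65 and 4.92 CPM in edited libraries, at least 37.1-fold higher (adjusted p = 0.0182). Epb41l4a, a FERM domain protein, was at 1.30 and 1.18 against 3.96 and 6.19 CPM and rose by 2.02 ± 0.29 (adjusted p = 0.0182). With length-scaled counts its value was 1.01. The other 4 genes that rose had a mean under 5 CPM in the edited libraries. Rab38 and Fam20c had 0 reads in both controls and 32 and 42, and 18 and 27 reads after editing, at least 13-fold and 7.90-fold higher. Rassf8 went from 1 and 2 reads to 64 and 77 (at least 24.9-fold) and Tmem71 rose by 2.25 ± 0.39 on the log2 scale.

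**Figure D2:**
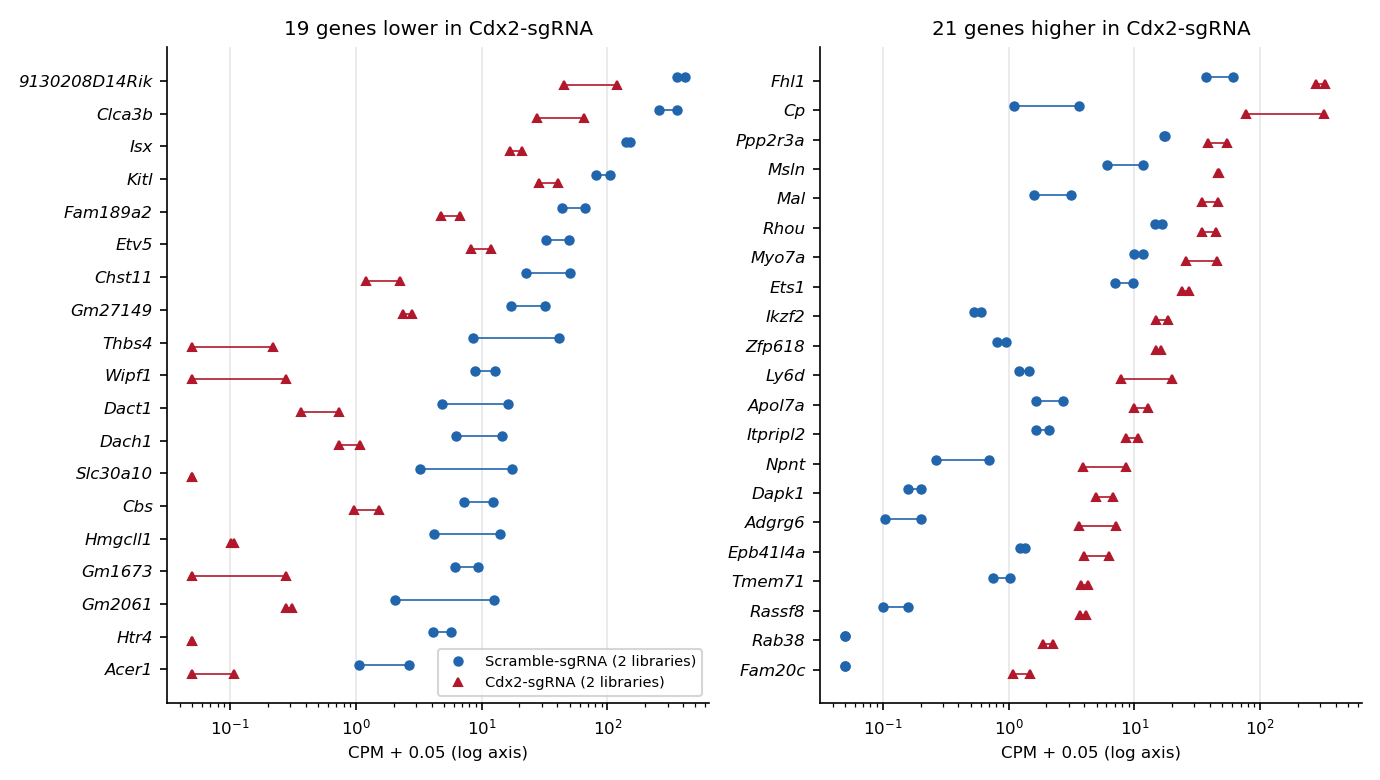
Levels of the 40 called genes in each of the 4 distal WENR-plus libraries, as CPM plus 0.05 on a log axis, for the 19 genes that fell and the 21 that rose. Blue circles are the 2 Scramble-sgRNA and red triangles the 2 Cdx2-sgRNA libraries, each pair joined by a line; no pair of lines overlaps, and the 0-read libraries of Slc30a10, Htr4, Rab38 and Fam20c sit at the left edge.

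Leaving out Scramble-sgRNA replicate 1 gave 19 called genes and leaving out replicate 2 gave 14, with 13 and 11 of the 40 among them. Without Cdx2-sgRNA replicate 1 there were 28 and without replicate 2 there were 21, with 18 and 17 of the 40. In such fits the lone library is assumed to vary like the other groups. Wipf1, Cbs, Isx and Msln were called in all 4 of these fits, and Gm1673, Dach1, Fam189a2 and Fhl1 in 3. Htr4, Etv5, Kitl, Tmem71, Zfp618, Fam20c and Rab38 were called in none of them. None of the 40 changed sign, and the highest adjusted p that any of them reached was 0.278. With length-scaled counts 12 of the 40 lost the call, at adjusted p of 0.0578 to 0.777, namely Thbs4, Hmgcll1, Etv5, Kitl, Ppp2r3a, Ets1, Myo7a, Epb41l4a, Tmem71, Zfp618, Rassf8 and Rab38. With voom 18 lost it (0.0623 to 0.383), namely Slc30a10, Thbs4, Hmgcll1, Gm1673, Acer1, Gm2061, Dact1, Epb41l4a, Tmem71, Itpripl2, Apol7a, Ly6d, Npnt, Zfp618, Dapk1, Rassf8, Adgrg6 and Fam20c.

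The size of several changes also moved with 1 library. For 13 called genes not at the floor the fitted fold change moved by over 1.5 times when a library was left out. Wipf1 was at -5.47 without Cdx2-sgRNA replicate 2, and without replicate 1, when the edited side had 0 reads, it was at least 67.8-fold lower. Gm1673 was at -4.99 and at least 48.4-fold lower in the same fits. Leaving out Scramble-sgRNA replicate 1 took Gm2061 to -2.97 and Npnt to 4.80, and leaving out replicate 2 took Gm2061 to -5.59. Without Scramble-sgRNA replicate 2 Chst11 was at -3.71, Dact1 at -3.21, Dach1 at -2.82, Msln at 2.99 and Mal at 4.74. Without Cdx2-sgRNA replicate 2 Clca3b was at -3.44, Ly6d at 2.64 and Npnt at 3.15, and without replicate 1 9130208D14Rik was at -3.08. Dact1 was at -5.02 without Cdx2-sgRNA replicate 1 and at -4.99 without Scramble-sgRNA replicate 1. Cp ran from 5.11 without Cdx2-sgRNA replicate 2 to 7.58 without Scramble-sgRNA replicate 2, with 7.12 and 5.79 without replicate 1 of the edited and the control libraries. Among genes at the floor, the bound of Hmgcll1 fell to 24.8-fold without Scramble-sgRNA replicate 2, that of Acer1 to 6.18-fold without replicate 1, and it rose to 84.9-fold for Hmgcll1 without replicate 1. Without Scramble-sgRNA replicate 2 the bounds of Slc30a10 and Thbs4 were 104-fold and 246-fold.

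None of the genes that the study measured as markers of stem or differentiated cells was called. Car1, a carbonic anhydrase of mature colonocytes, was at 239 and 163 CPM in controls and at 520 and 343 CPM in Cdx2-sgRNA libraries. Its log2 fold change was 1.1 ± 0.36 with an adjusted p of 0.439. Its libraries did not overlap, which held for 37.1% of all tested genes. Ephb2 was at 193 and 184 against 162 and 193 CPM, Lgr5 at 54.6 and 82.4 against 33.1 and 129 CPM, and Ascl2 at 6.01 and 7.64 against 2.52 and 9.42 CPM. These 3 stem cell genes overlapped between the groups, and the spread of Lgr5 and Ascl2 within the edited pair exceeded any difference between the pairs. Muc2, the main mucin of goblet cells, was at 239 and 199 against 277 and 38.2 CPM. Krt20, a keratin of surface cells, was at 36.9 and 21.1 against 25.1 and 30.8 CPM, and Fabp2, a fatty acid binding protein of enterocytes, at 10.6 and 2.42 against 1.55 and 2.49 CPM (adjusted p = 0.76). The brush border gene Vil1 was at 207 and 174 against 228 and 245 CPM. Cdkn2a, a cell cycle inhibitor, was at 0.250 and 0.323 against 1.83 and 2.01 CPM (adjusted p = 0.714). Sfrp4 had no read and Sox17 2 reads or fewer in each library.

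**Figure D3:**
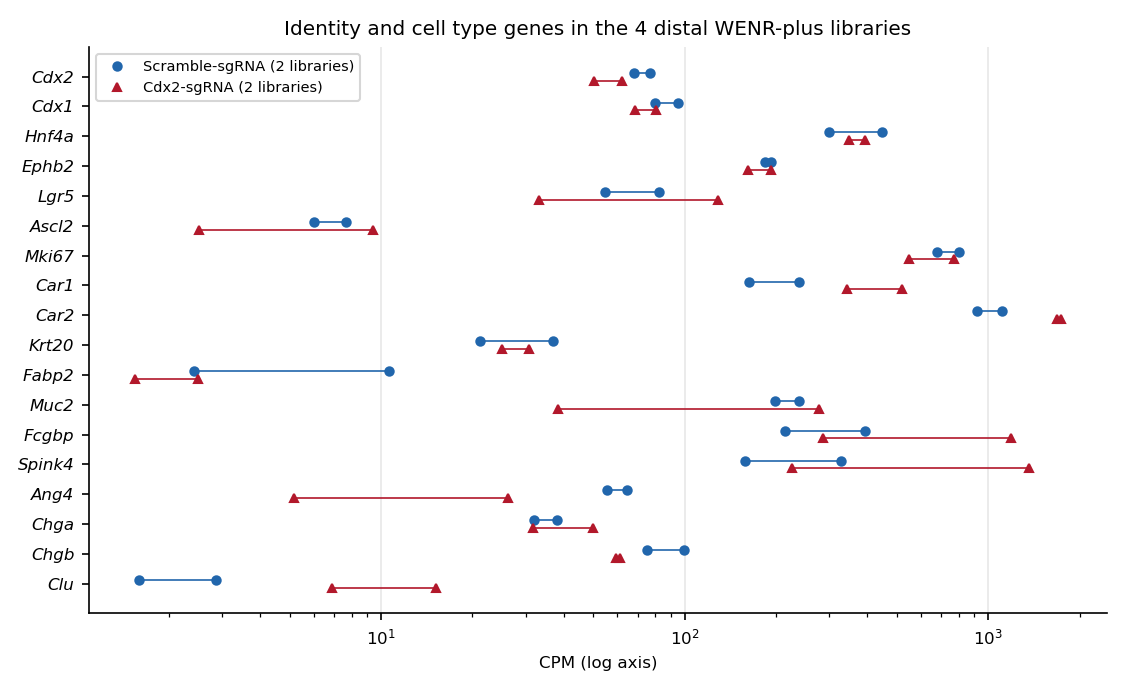
Levels in CPM (log axis) of identity, stem cell, proliferation and differentiation genes in the 4 distal WENR-plus libraries, with 2 Scramble-sgRNA libraries as blue circles and 2 Cdx2-sgRNA libraries as red triangles, each pair joined by a line. The genes were picked after their values were seen, and none of the 18 was called; Muc2, Lgr5, Fcgbp and Spink4 spread widely between the 2 Cdx2-sgRNA libraries.

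Gene lists of the differentiated cell types had no called member. The 28 tested colonocyte genes had a median of 0.26 (log2 fold change), with 19 positive and 9 negative, and 0.029 to 0.65 without 1 library. Their most abundant members were Car2 (1112 and 918 against 1692 and 1734 CPM, adjusted p = 0.612) and Ceacam1 (1405 and 1337 against 1554 and 1239 CPM). The 21 goblet cell genes had a median of 0.17, with 16 positive. Fcgbp, a mucus protein, was at 394 and 214 against 1188 and 286 CPM and Spink4 at 328 and 158 against 1359 and 226 CPM. The summed level of the goblet list was 5377 and 1278 CPM in the edited and 2582 and 1507 CPM in the control libraries, so that Cdx2-sgRNA replicate 1 was the highest and replicate 2 the lowest. The median of the list was -0.82 without replicate 1 and 0.78 without replicate 2. The 18 enteroendocrine genes had a median of 0.23 (-0.14 without Cdx2-sgRNA replicate 1), with Chga at a log2 fold change of 0.23 (adjusted p = 0.974) and Chgb at 99.7 and 75.3 against 61.1 and 59.2 CPM. Of 16 tuft cell genes 5 had enough counts to be tested, Plcg2 at 2.65 and 0.538 against 1.38 and 1.32 CPM and Il17rb at 1.00 and 0.430 against 0.917 and 1.90 CPM among them.

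Crypt and proliferation genes had no called member, and most of their fold changes were negative. Of 18 stem cell and crypt bottom genes 14 were negative with a median of -0.18, and 14 of 19 Wnt target genes with a median of -0.19. Without 1 library these medians ran from -0.41 to -0.0079 and from -0.48 (without Cdx2-sgRNA replicate 2) to 0.028 (without replicate 1), so the sign of the Wnt list rested on Cdx2-sgRNA replicate 1. Slc12a2, a chloride cotransporter of crypt cells, was at 1009 and 1038 against 856 and 975 CPM, and Prom1 at 403 and 448 against 376 and 399 CPM. The Wnt target Cd44 was at 107 and 147 against 160 and 250 CPM (adjusted p = 0.829). Of 43 S phase genes 42 were negative, with a median of -0.29 and 3 below an unadjusted p of 0.05, where 7901 of the 15289 tested genes were negative and 399 were lower at that level. In addition 42 of 54 G2M genes were negative with a median of -0.11 (0.059 without Cdx2-sgRNA replicate 1). Pcna was at 176 and 152 against 128 and 162 CPM and Mki67 at 676 and 800 against 548 and 769 CPM. The summed S phase level was 2215 and 2482 CPM in controls and 1700 and 2102 CPM in edited libraries, which do not overlap. The summed G2M level was 5716 and 5781 CPM in controls and 4895 and 6120 CPM in edited libraries, which overlap. Libraries did not overlap for 65.1% of the S phase genes and for 11.1% of the G2M genes, against 37.1% of all genes.

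Gastric and squamous genes had high medians at low levels, and no member of either list was called. All 10 tested members of the 22 gastric and foregut genes were positive, with a median of 1.48, or 0.78 with members at the floor set to their limits, and their sum was 23.7 and 15.3 CPM in controls and 40.2 and 46.0 CPM in edited libraries. Muc1, a membrane mucin, was at 5.71 and 2.90 against 15.6 and 12.7 CPM, and Vsig1, an adhesion protein of the stomach, at 15.2 and 8.55 against 17.0 and 18.7 CPM. Defining stomach genes such as Muc5ac, Gkn1 and Sox2 had too few reads to be tested. Of 12 tested squamous and epidermal genes 10 were positive, with a median of 1.34 (1.14 with limits), and the sum was 19.9 and 27.4 against 96.4 and 104 CPM. The median was 0.62 without Cdx2-sgRNA replicate 1 and 2.51 without Scramble-sgRNA replicate 2. Krt4, a keratin of stratified epithelium, was its largest member in the edited libraries, at 3.80 and 13 against 50.3 and 75.6 CPM (adjusted p = 0.115, and 0.000177 by DESeq2). The basal keratin Krt5 and the factor Trp63 had too few reads to be tested.

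The remaining lists had a call at most in Thbs4. The 24 tested Hox genes had a median of 0.0, with Hoxb13 at 149 and 123 against 156 and 87.2 CPM and Hoxa13 at 35.5 and 37.2 against 38.3 and 51.3 CPM, neither of which was called. The 29 matrix and adhesion genes had a median of 0.31 and 1 call, Thbs4. Itgav, an integrin subunit, was at 81.8 and 93.6 against 116 and 130 CPM (adjusted p = 0.185), and Col18a1, a basement membrane collagen, at 2.80 and 9.14 against 15.5 and 46.4 CPM (adjusted p = 0.134, and 0.00147 by DESeq2). Lamb3, a laminin chain, was at 101 and 85.6 against 124 and 148 CPM. The 44 xenobiotic genes had a median of -0.028, the 25 lipid genes 0.15, the 36 solute carriers 0.13, the 25 p53 targets -0.045, the 25 interferon and antigen presentation genes 0.43 and the 20 host defence genes 0.76. None of these 6 lists had a called member. Without 1 library the host defence median ran from 0.27 to 0.82, the interferon median from 0.23 to 0.69, the matrix median from 0.069 to 0.57 and the xenobiotic median from -0.34 to 0.43.
Their most abundant members included Ugt2b34 (593 and 397 against 468 and 512 CPM), Acsl5 (130 and 196 against 143 and 194 CPM), Ccng1 (278 and 250 against 243 and 267 CPM), H2-D1 (178 and 136 against 246 and 159 CPM) and Pigr (2201 and 1304 against 2109 and 1890 CPM).

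**Figure D4:**
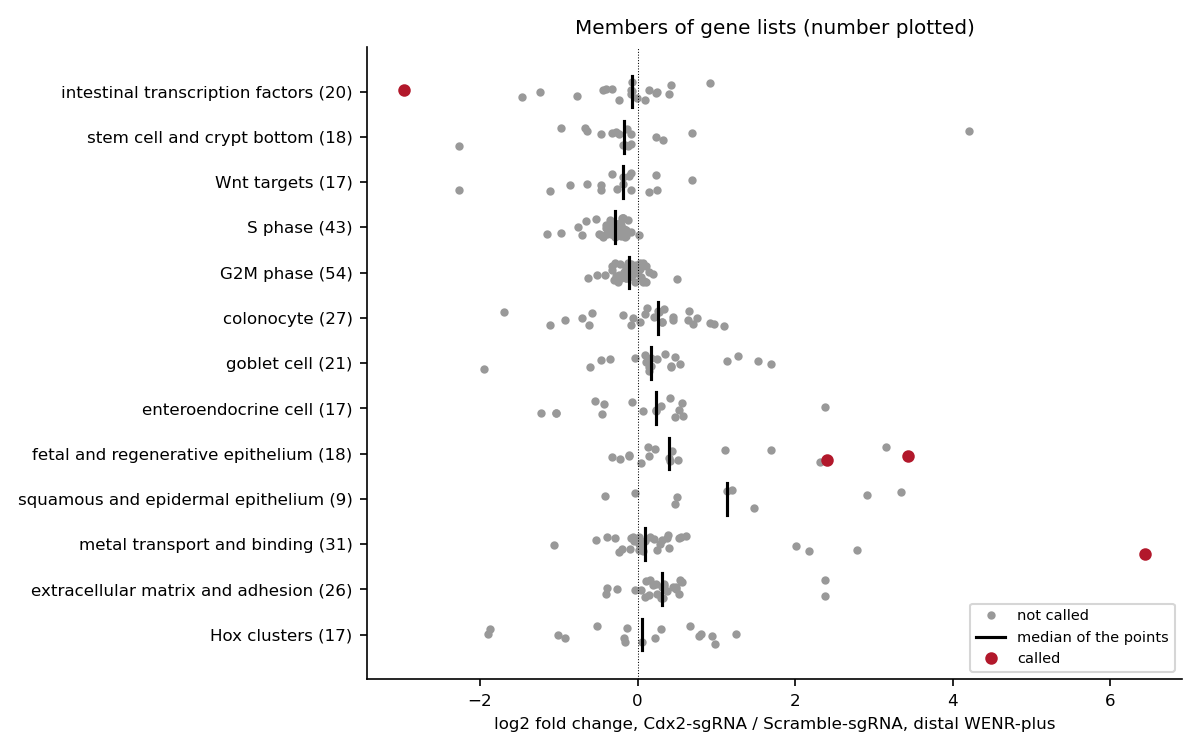
Log2 fold changes (x axis) of the members of 13 gene lists in the distal WENR-plus comparison, with 1 point for each tested gene that was above 3 reads in some library of both groups and the number of points in brackets. Called genes are red, and the black bar is the median of the points; Isx, Msln, Ly6d and Cp are the called members shown, while Slc30a10 and Thbs4 are left out because their edited libraries hold at most 3 reads.

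The 40 genes were then read in the other 3 comparisons of Cdx2-sgRNA with Scramble-sgRNA, which use other libraries of the same 2 mice. In proximal WENR-plus organoids 37 had the same sign and 34 were called, against 15.9% of all genes. In distal WENR-minus organoids, which come from the same lines as the WENR-plus libraries, all 40 had the same sign and 36 were called, against 5.25% of all genes. In proximal WENR-minus organoids 39 had the same sign and 34 were called, against 21.2% of all genes. Since the distal WENR-minus libraries share their clones with the distal WENR-plus libraries, they are not independent of them. The shares of the 40 that were called are 85.0%, 90.0% and 85.0% in these comparisons.

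The difference between regions was tested directly. The effect in distal minus that in proximal WENR-plus organoids was called for 762 genes, or 4.98%, and for 15 of the 40. In 9 of the 15 the distal change was the smaller. Isx went from 197 and 180 CPM to 1.28 and 1.06 CPM in proximal organoids, a log2 fold change of -7.33 that left less than the distal 16.9 and 20.8 CPM, and the difference was 4.37 ± 0.31 (adjusted p = 1.65e-05). Clca3b went from 244 and 202 to 1.62 and 1.06 CPM there (difference 4.66 ± 0.68, adjusted p = 0.00256), and Cbs from 39.5 and 39.5 to 0.290 and 0.317 CPM (3.99 ± 0.52, adjusted p = 0.0012). These genes, with Fam189a2, Dach1, Gm27149 and 9130208D14Rik, fell in both regions and kept more of their RNA in the distal one. Msln rose to 400 and 356 CPM in proximal organoids (difference -2.13 ± 0.41, adjusted p = 0.0122) and Itpripl2 to 107 and 64.7 CPM.

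For 6 of the 15 the change was the larger in distal organoids. Kitl went from 138 and 117 CPM to 194 and 286 CPM in proximal organoids and so moved the other way (difference -2.33 ± 0.33, adjusted p = 0.00228). Zfp618 was at 22.9 and 6.45 against 5.97 and 7.51 CPM in proximal organoids (5.34 ± 0.86, adjusted p = 0.00458), and Ppp2r3a at 34.1 and 26.2 against 23.2 and 23.6 CPM (1.79 ± 0.32, adjusted p = 0.0089). Neither of these 2 was called there, and their proximal control libraries were above the distal controls. Ets1 (1.19 ± 0.31, adjusted p = 0.0482) and Ikzf2 (2.90 ± 0.72, adjusted p = 0.0378) had smaller positive changes in proximal organoids, where Ets1 was not called. Hmgcll1 was at 12.9 and 11.6 against 3.60 and 7.61 CPM in proximal organoids, and the difference was called (adjusted p = 0.0287) with a size that depends on the edited distal libraries at 1 read each.

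**Figure D5:**
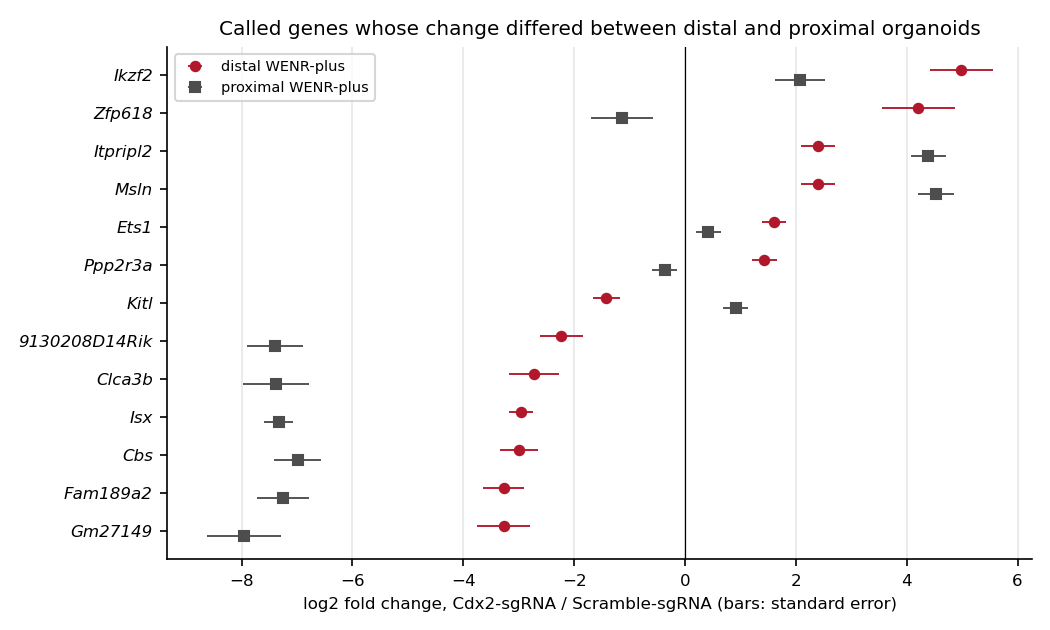
Log2 fold change of Cdx2-sgRNA against Scramble-sgRNA (x axis, bars are the standard error) in distal (red circles) and proximal (grey squares) WENR-plus organoids, for 13 of the 15 called genes whose change differed between the regions. Hmgcll1 and Dach1 are left out because a group holds at most 3 reads; Kitl, Ppp2r3a and Zfp618 lie on opposite sides of 0 in the regions.

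The differentiated cell lists set the distal organoids apart from the proximal ones. The difference was called for 14 of 21 goblet cell genes, 12 of 28 colonocyte genes, 9 of 18 enteroendocrine genes and 7 of 20 intestinal transcription factors, all with the lower value in the proximal comparison, against 4.98% of all genes. Median log2 fold changes in proximal WENR-plus organoids were -4.31, -1.96, -5.05 and -1.07 for these lists, where distal values were 0.17, 0.26, 0.23 and -0.075. Car1 had a log2 fold change of -3.16 in proximal organoids (difference 4.26, adjusted p = 0.000928), and Muc2 one of -5.97 (difference 5.49, adjusted p = 0.0137). For Chga the proximal value was -5.81 (difference 6.03, adjusted p = 6.36e-05). The fetal and regenerative list went the other way, with 6 of 22 genes called for the difference, all higher in the proximal comparison. Cdx2 RNA itself differed (1.72, adjusted p = 0.00499), as did Cdx1 (6.38, adjusted p = 3.08e-06), whose proximal log2 fold change was -6.62.

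The 6 genes with the lowest adjusted p for the regional difference that were not called in distal organoids were B4galt4, Heph, Aldh1b1, Cyp2c55, Ush1c and Cdx1. Heph, a copper-dependent ferroxidase of the gut epithelium, was at 131 and 142 against 157 and 137 CPM in distal organoids, with a log2 fold change of 0.10, and had -5.49 in proximal organoids (difference 5.60, adjusted p = 1.39e-07). B4galt4, a galactosyltransferase, was at 89.8 and 74.4 against 72.2 and 77.0 CPM (difference 5.86, adjusted p = 1.08e-07). Cyp2c55, a cytochrome of the colon, was at 262 and 244 against 278 and 271 CPM (difference 4.38, adjusted p = 3.08e-06). Ush1c, a brush border scaffold, was at 60.5 and 55.5 against 42.8 and 44.1 CPM (difference 6.20). In distal organoids these 4 had log2 fold changes between -0.42 and 0.12. Aldh1b1, an aldehyde dehydrogenase, was at 96.1 and 62.5 against 41.3 and 30.2 CPM there, with a log2 fold change of -1.15 ± 0.20 close to the threshold (adjusted p = 0.0504), and had -7.49 in proximal organoids (difference 6.34, adjusted p = 3.08e-06).

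The difference of the Cdx2-sgRNA effect between media depended on the fit in distal organoids. For WENR-plus minus WENR-minus edgeR called 0 genes (0.0%), the lowest adjusted p was 0.0659 and 1457 genes had an unadjusted p under 0.05. The libraries of the 2 media come from the same lines. The fit that takes the line as a block, limma's voom, called 72 genes and DESeq2 120. Side by side, Isx went from 258 and 185 to 55.8 and 68.5 CPM in WENR-minus, Kitl from 56.5 and 66.5 to 12.9 and 14.6 CPM, and Mal from 19.1 and 17.9 to 587 and 543 CPM. Cp was at 0.539 and 1.00 against 2.03 and 6.44 CPM there and Acer1 at 12.7 and 6.81 against 7.95 and 11.4 CPM, and neither was called in WENR-minus.

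Promoter windows, chosen after the values were seen, are shown for the gene with the strongest evidence and for the 3 called genes with a window that holds a CDX2 motif. The windows run from 250 bases before to 50 bases after a start of transcription and come from RefSeq (GRCm38.p6) windows, with an entry for 28 of the 40 genes. TTTATNG, in which N is any base, was searched on both strands; its reverse form ends in ATAAA, letters that the TATA box also holds. Capitals mark the matches, and the Isx window has none.
Isx (chr8:74872924-74873223, plus strand): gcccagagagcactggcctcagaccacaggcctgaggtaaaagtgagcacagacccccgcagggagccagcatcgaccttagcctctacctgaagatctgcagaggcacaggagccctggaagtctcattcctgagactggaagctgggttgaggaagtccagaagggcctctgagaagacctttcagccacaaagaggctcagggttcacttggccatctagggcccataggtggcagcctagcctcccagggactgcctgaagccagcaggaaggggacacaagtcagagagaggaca
Thbs4 (chr13:92794769-92795068, minus strand): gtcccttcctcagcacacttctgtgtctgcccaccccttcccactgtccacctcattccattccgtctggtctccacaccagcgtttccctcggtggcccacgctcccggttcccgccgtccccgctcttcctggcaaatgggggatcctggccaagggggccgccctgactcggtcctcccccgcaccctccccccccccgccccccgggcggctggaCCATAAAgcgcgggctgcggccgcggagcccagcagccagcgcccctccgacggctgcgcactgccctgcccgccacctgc
Wipf1 (chr2:73485704-73486003, minus strand): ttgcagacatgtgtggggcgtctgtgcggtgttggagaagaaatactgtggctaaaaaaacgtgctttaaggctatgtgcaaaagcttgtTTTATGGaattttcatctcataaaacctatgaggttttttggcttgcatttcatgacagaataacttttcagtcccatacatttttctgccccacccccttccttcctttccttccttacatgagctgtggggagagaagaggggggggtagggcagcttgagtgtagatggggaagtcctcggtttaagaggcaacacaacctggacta
Cp (chr3:19956999-19957298, plus strand): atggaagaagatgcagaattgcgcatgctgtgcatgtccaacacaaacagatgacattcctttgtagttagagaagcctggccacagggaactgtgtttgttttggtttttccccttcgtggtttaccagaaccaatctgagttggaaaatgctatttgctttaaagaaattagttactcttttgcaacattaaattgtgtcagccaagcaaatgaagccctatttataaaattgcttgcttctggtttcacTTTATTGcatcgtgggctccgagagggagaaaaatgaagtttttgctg
The match began 31 bases before the start in Thbs4 and 160 bases before it in Wipf1, and just past it in Cp. Wipf1 has 3 such windows and Cp has 2, and in each gene only the window shown holds the motif. The Wipf1 window shown belongs to a start inside the annotated gene. The motif was present in 2 of 15 genes that fell and in 1 of 13 that rose and have a window, against 12.5% of all 27025 genes with a window. These shares rest on few genes and are not tested. Absence of these letters in a window says nothing about binding of the factor elsewhere.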

How the data were processed

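Per the protocols, total RNA of mouse distal and proximal colon organoids was made into stranded libraries (SMARTer kit). The authors quantified reads with Salmon (version 1.1.0 in the submitters' processing notes, which also name DESeq2 1.32) on GENCODE transcripts of mm10, one deposited table per library. The deposited expected counts (estimated counts per transcript) are not scaled between libraries. The deposited TPM values, scaled per library by the authors' Salmon run, and effective lengths served only for length-scaled counts.

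Transcripts were matched by identifier to GENCODE vM21 (GRCm38), a release other than that of the authors. Of 140748 transcripts 139864 matched, and the rest, with 0.299 to 0.404% of the counts of the 4 libraries, were left out. Counts were summed to 54123 genes and rounded. Low genes were removed with filterByExpr (edgeR 4.0.16 in R 4.3.3), which left 15289, and counts were scaled by TMM and fitted with 1 coefficient per group over all 16 libraries (glmQLFit, 8 residual degrees of freedom, prior count 0.125). Contrasts were tested with glmQLFTest, two-sided, with Benjamini-Hochberg adjustment over all tested genes. Calls needed an adjusted p below 0.05 and a log2 fold change beyond 1 in size. SE was taken as the size of the fold change (log2) over the root of the F statistic. On simulated counts for this comparison, run on 15289 genes, 74.7% of 91 genes changed by a log2 of 1.5 and 85.3% of 109 changed by a log2 of 2 were recovered, with 4 false calls. The changed genes were drawn only from genes with higher mean counts, so recovery at low counts was not covered. Simulated libraries were independent of each other, unlike the 2 media of a line, so the false calls of the real fit may be more.

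Replicates come from 2 mice, per the methods, and the sources used here tie no replicate number to a mouse. The fit without a block is therefore the one reported. Each line gave a library in both media. Deviations of such libraries from their group means correlated at r = 0.404 in distal Cdx2-sgRNA and 0.281 in distal Scramble-sgRNA lines. The edgeR fit counts them as independent, so its 8 residual degrees of freedom are overstated. The voom fit with the culture as a block allows for this, and 18 of the 40 lost the call there. Depth covers counting error only.

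Members and gene lists were chosen with earlier results of these data known. Named were Cdx2 and Cdx1, the genes the study names, every called gene (with each library's value at 5 CPM or more in the higher group), up to 4 members of a list with a called gene and up to 2 of any other, and 6 genes called for a difference alone. A single list member among those chosen this way is left out. Lists were written by hand, except S phase and G2M (Seurat 5.3.0). Alternatives were DESeq2 1.42.0, limma 3.58.1 voom with the culture as a random block (correlation 0.408), other scaling and filters, fewer libraries, length-scaled counts, the replicate block, no mitochondrial genes and leaving out each library.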

Additional observations from a re-analysis of the deposited data

Results flagged for a closer look

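For 15 of the 40 called genes the change in distal WENR-plus organoids differed from that in proximal WENR-plus organoids by the edgeR test of the difference. Differences are distal minus proximal log2 fold changes. Genes that fell less in distal organoids were Isx (4.37), Clca3b (4.66), 9130208D14Rik (5.17), Cbs (3.99), Fam189a2 (3.99), Gm27149 (4.69) and Dach1 (4.90). For Dach1 the edited proximal libraries hold at most 3 reads, so the size of its difference depends on the prior count. Genes that rose less in distal organoids were Msln (-2.13) and Itpripl2 (-1.99). Genes with the larger distal change were Kitl (-2.33), Hmgcll1 (-6.05, also at the floor of counting), Ets1 (1.19), Ppp2r3a (1.79), Ikzf2 (2.90) and Zfp618 (5.34). Groups of 2 libraries are too small for a test of single libraries that stand apart.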

How the results depend on the processing

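The count of 40 genes became 176 with DESeq2, 586 without a filter on low counts, 65 with the replicate block, 17 with at least 10 counts in every library, 16 with the 8 distal libraries alone and 4 with the 4 distal WENR-plus libraries alone. Leaving out each library gave 14 to 28. For the difference from proximal organoids (762 genes) DESeq2 gave 1228, no filter 1863, at least 10 counts 426, and leaving out each library 360 to 660. For the difference between media (0 genes) DESeq2 gave 120, no filter 354, at least 10 counts 4, the replicate block 8, voom with the culture block 72, and leaving out each library 0 throughout. The cause of these changes was not tested, except that fewer libraries leave fewer residual degrees of freedom. All 40 genes remained called under DESeq2, the replicate block, RLE scaling, no filter and no mitochondrial genes. Of the 40, 28 remained with length-scaled counts and 22 with voom. With at least 10 counts in every library 16 remained, and the others were not tested. With the 8 distal libraries alone 10 remained, and with the 4 distal WENR-plus libraries alone 3 remained. The replicate block kept all 40 and added 25 genes. Of these, Car1 (adjusted p = 0.0134), Aldh1b1 (0.0201) and Clu (0.0344) are named in the text. No source used here says whether libraries with the same number come from the same mouse. Deviations from the group means of same-numbered Scramble-sgRNA and Cdx2-sgRNA libraries correlated across genes at r = 0.148 in distal WENR-plus, 0.116 in distal WENR-minus, -0.0594 in proximal WENR-plus and -0.0351 in proximal WENR-minus. DESeq2 also called Vdr, Clu, Krt4, Trf and Col18a1. Of the 25 list medians 21 moved by more than the spread between replicates in at least 1 fit that left out a library, and 11 changed sign, among them Wnt targets, goblet and enteroendocrine cells and G2M phase. No called gene changed sign under any alternative run. With 2 libraries a group, changes near the fold threshold in genes of low counts could be missed.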
